A study of Mus musculus with 4 samples.

Results

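The variable genes of the T cell receptor α and β chains were followed in liver mononuclear cells. They were all genes whose symbol begins with Trav or Trbv, and they made up 163 of the 31053 genes counted. Of these, 128 were Trav genes on chromosome 14 (mm10, 52427928 to 53977678) and 35 were Trbv genes on chromosome 6 (mm10, 40891229 to 41558452). Their usage was read in CD3 cells, which were cells with at least 1 unique molecular identifier (UMI, a tag that counts 1 captured RNA molecule) of Cd3d, Cd3e and Cd3g together. There were 3155 CD3 cells among 9300 cells: 569 of 2086 in Naïve, 1112 of 2779 in ConA+Veh, 794 of 1880 in ConA+TCDD and 680 of 2555 in ConA+FICZ. All 163 genes were matched to the annotation, and 106 of them held at least 1 UMI in a CD3 cell.

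The mice were C57BL/6, 8 to 10 weeks old, and each condition was represented by 1 library. The Naïve library came from mice given no ConA, and the other libraries came from mice given concanavalin A (ConA), a plant lectin that activates T cells of any specificity and causes acute hepatitis. The ConA mice also received vehicle (ConA+Veh), TCDD, a dioxin that binds the aryl hydrocarbon receptor (AhR) with high affinity (ConA+TCDD), or FICZ, a tryptophan-derived AhR ligand (ConA+FICZ). The ConA+Veh, ConA+TCDD and ConA+FICZ mice were taken 24 hours after ConA. For ConA+FICZ the dose and the time of FICZ are not given in the sources used here. Values in series follow this order of libraries. How many mice each library held is not given in the sources used here. With 1 library per condition no test between conditions was possible, and every interval printed is a 95% interval for counting error only, which does not hold the spread between mice.

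Each developing T cell cuts its receptor genes and joins 1 V segment to a J segment, in the β chain with a D segment between them, and the joined V exon is then read into RNA with the constant gene, Trac for the α chain or Trbc1 or Trbc2 for the β chain. Because most αβ T cells carry 1 productive β chain, the Trbv gene of a cell marks its clone's β chain. The liver is rich in invariant NKT cells, whose α chain joins Trav11 to Traj18 and whose β chain mostly uses Trbv13-2, Trbv29 or Trbv1. Mucosal-associated invariant T cells use Trav1 with Traj33.

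Trav11 was of most interest for the innate-like cells, and its sequence sets what the counts can show. The first 120 bases from the start codon of its spliced transcript are printed here with those of its 2 copies (GENCODE M21 on GRCm38, plus strand). Capitals mark the bases that differ from Trav11.
Trav11: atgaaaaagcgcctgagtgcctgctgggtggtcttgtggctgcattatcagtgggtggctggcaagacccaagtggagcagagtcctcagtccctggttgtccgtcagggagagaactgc
Trav11d: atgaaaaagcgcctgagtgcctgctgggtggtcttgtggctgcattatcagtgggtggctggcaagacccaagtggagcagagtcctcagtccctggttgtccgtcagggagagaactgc
Trav11n: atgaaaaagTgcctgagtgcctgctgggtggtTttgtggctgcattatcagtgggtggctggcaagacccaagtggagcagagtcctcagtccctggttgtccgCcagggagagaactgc
Trav11 (chr14:53519303-53519859) and Trav11d (chr14:52824357-52824912) did not differ by any base over the 342 bases that both hold from the start codon. None of their 60-base windows was unique among the 163 genes. Trav11n (chr14:53135122-53135678) is annotated as a pseudogene and differed at 8 bases of 343, 3 of them in the stretch shown. Across the α locus 34 of 128 Trav genes were identical to another member, 56 lay within 3 edits of one, and 39 had no unique 60-base window. Every 60-base window of the 35 Trbv genes, in contrast, was found in that gene alone among the 163, and no Trbv gene lay within 3 edits of another. The Trbv13 genes, the closest β relatives of the gene that led all libraries, are printed next, with capitals for the bases that differ from Trbv13-2 after alignment with gaps. From the start codon Trbv13-1 holds 337 bases and Trbv13-2 holds 340. Bases that Trbv13-1 lacks are not marked, so the 2 printed sequences do not match position by position.
Trbv13-2: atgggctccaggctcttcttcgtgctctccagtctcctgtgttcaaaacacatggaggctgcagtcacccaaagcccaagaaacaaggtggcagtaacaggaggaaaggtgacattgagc
Trbv13-3: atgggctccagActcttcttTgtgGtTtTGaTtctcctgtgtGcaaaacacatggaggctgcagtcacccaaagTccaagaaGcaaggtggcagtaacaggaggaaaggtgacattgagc
Trbv13-1: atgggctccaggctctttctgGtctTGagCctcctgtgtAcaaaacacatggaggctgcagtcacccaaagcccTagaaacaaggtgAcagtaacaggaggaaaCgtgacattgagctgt
Over the whole stretch from the start codon to the end of the annotated transcript, Trbv13-3 lay 32 edits and Trbv13-1 41 edits from Trbv13-2. The other 2 genes that serve invariant NKT cells, Trbv29 and Trbv1, belong to other families and are shown without capitals.
Trbv29: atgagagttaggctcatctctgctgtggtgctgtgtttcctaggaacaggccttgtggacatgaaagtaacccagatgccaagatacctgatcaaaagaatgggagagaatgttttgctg
Trbv1: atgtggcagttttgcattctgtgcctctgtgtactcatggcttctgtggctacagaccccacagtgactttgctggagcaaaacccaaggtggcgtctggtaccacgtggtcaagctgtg
A 60-base stretch thus names 1 gene among the β members, whereas for many α members it is shared by several copies.

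The number of UMIs counted differed between the loci and with the uniqueness of the sequence. In CD3 cells the 35 Trbv genes held 16167 UMIs and the 128 Trav genes held 6044. All 22 functional Trbv genes had UMIs, as did 2 of 13 Trbv pseudogenes, of which Trbv24 had 106. Of 46 functional Trav genes with at least 50% unique windows, 45 had UMIs, against 31 of 62 functional Trav genes with fewer. The 39 Trav genes with no unique window held 10 UMIs together. Levels of genes within the Trav locus are therefore given as counted, and the counts of near-identical copies are uncertain.

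A cell was called for the gene of the locus with most UMIs, and cells in which 2 genes led equally were left out. A Trbv UMI was found in 394 of 569 CD3 cells in Naïve (69.2%, interval 65.3 to 73.0), 702 of 1112 in ConA+Veh (63.1%), 527 of 794 in ConA+TCDD (66.4%) and 447 of 680 in ConA+FICZ (65.7%). A Trav UMI was found in 35.3%, 42.7%, 47.1% and 44.0% of the same cells. The calls numbered 378, 685, 512 and 433 for Trbv and 184, 446, 354 and 284 for Trav. The libraries differed in depth, with median UMIs per CD3 cell of 2600, 5541, 5782 and 7013. With each cell thinned to 1000 UMIs, Trbv was found in 50.3% of CD3 cells in Naïve, 36.3% in ConA+Veh, 31.3% in ConA+TCDD and 31.9% in ConA+FICZ. Over all CD3 cells Naïve thus stood above the ConA libraries at equal depth. The thinning left out 38, 63, 41 and 24 CD3 cells with fewer UMIs. The Trbv UMIs of the CD3 cells, scaled to 1000000 UMIs of all genes (CPM), had the same order, with 958.4, 617.9, 501.7 and 544.8 CPM. The thinned shares of Naïve and ConA+Veh differed by the gates described below. They were 49.4% and 43.4% in CD8 and 53.1% and 52.2% in CD4 cells, with overlapping intervals in each gate. In innate-like cells they were 58.3% and 31.0%, and in ungated cells 45.7% and 25.5%. In CD8 cells of ConA+TCDD and ConA+FICZ they were 33.7% and 35.6%.

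**Figure D1:**
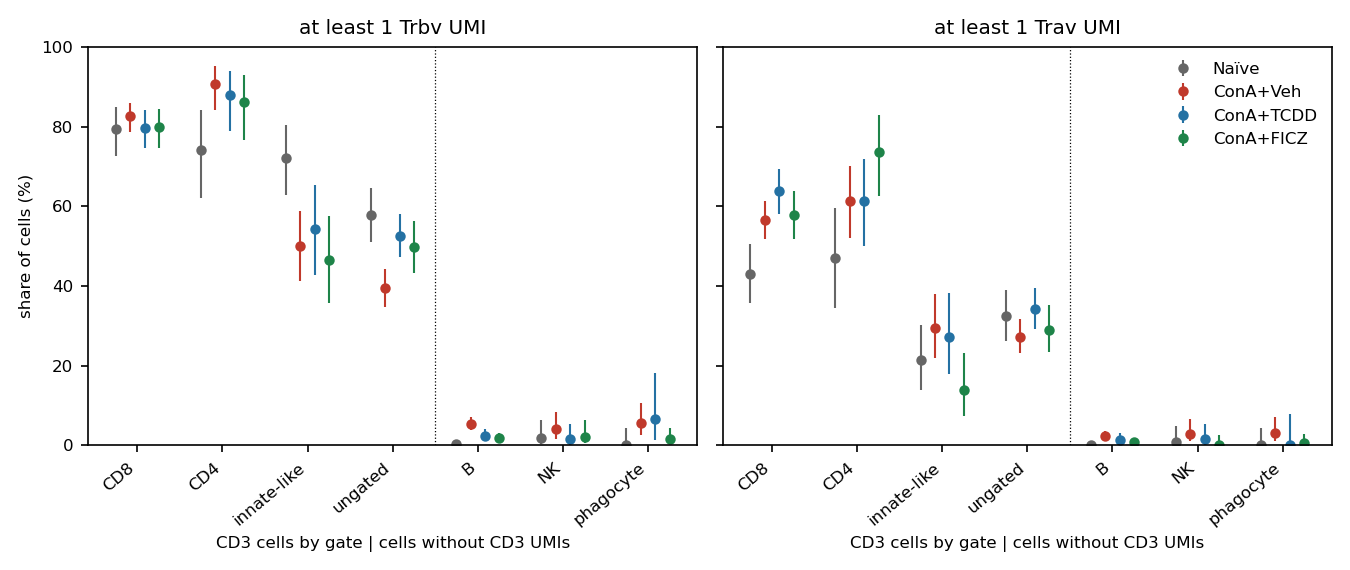
Share of cells (%) with at least 1 Trbv UMI (left) or Trav UMI (right) in each library, for CD3 cells by gate and, right of the dotted line, for B cells, NK cells and phagocytes without CD3 UMIs. Points are shares and bars are exact 95% intervals for counting error. CD8 and CD4 cells stand highest, between 74.2% and 90.8% for Trbv, and the cells without CD3 UMIs stand at or below 6.67%.

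Cells that should lack a T cell receptor gave the background. Among B cells without CD3 UMIs (a UMI of Cd79a, Cd79b or Ms4a1), a Trbv UMI was found in 0.456% of 1097 cells in Naïve, 5.33% of 826 in ConA+Veh, 2.29% of 436 in ConA+TCDD and 1.85% of 810 in ConA+FICZ, at median depths of 2135, 4164, 3443 and 3660 UMIs. The B cell share was highest in ConA+Veh, where 63.1% of CD3 cells held a Trbv UMI. A Trav UMI was found in 0.182%, 2.42%, 1.38% and 0.741% of the same B cells, so that both loci were read above this background in the CD3 cells of all 4 libraries.

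CD3 cells with no V gene UMI had a lower median of CD3 UMIs than those with one in ConA+Veh and Naïve. The depth of these cells is not given here, so fewer CD3 UMIs and shallower cells cannot be told apart. In ConA+Veh 358 of 1112 CD3 cells held neither a Trbv nor a Trav UMI. Their median was 1 CD3 UMI per cell, against 15 in the cells with a V gene, and B cell genes were found in 34.1% of them, against 14.5%. In Naïve the cells without a V gene numbered 149, with a median of 3 CD3 UMIs against 7, and B cell genes in 8.05% against 6.43%. Trdc, the δ chain constant gene, was found in 12.1% of the Naïve cells without a V gene and in 1.90% of those with one. The part of cells of other types in these CD3 cells was not tested further, and leaving out cells with a Cd79a, Cd79b or Lyz2 UMI gave a called share in ConA+Veh of 69.4%, against 61.6% with them.

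In every library Trbv13-2 (formerly Vβ8.2, chr6:41121396-41121832) was the leading β gene. It was called in 105 of 378 cells in Naïve (27.8%, interval 23.3 to 32.6), 106 of 685 in ConA+Veh (15.5%, 12.8 to 18.4), 71 of 512 in ConA+TCDD (13.9%, 10.99 to 17.2) and 54 of 433 in ConA+FICZ (12.5%, 9.51 to 15.96). The Naïve interval lay apart from those of the 3 ConA libraries, which overlapped each other. For ConA+Veh against Naïve its share gave a log2 ratio of -0.84 (-1.25 to -0.44), where the library named first is divided by the other. Between the ConA libraries this value was -0.16 (-0.61 to 0.29) for ConA+TCDD against ConA+Veh and -0.31 (-0.81 to 0.17) for ConA+FICZ against ConA+Veh, so a difference between them was not detectable at this depth.

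**Figure D2:**
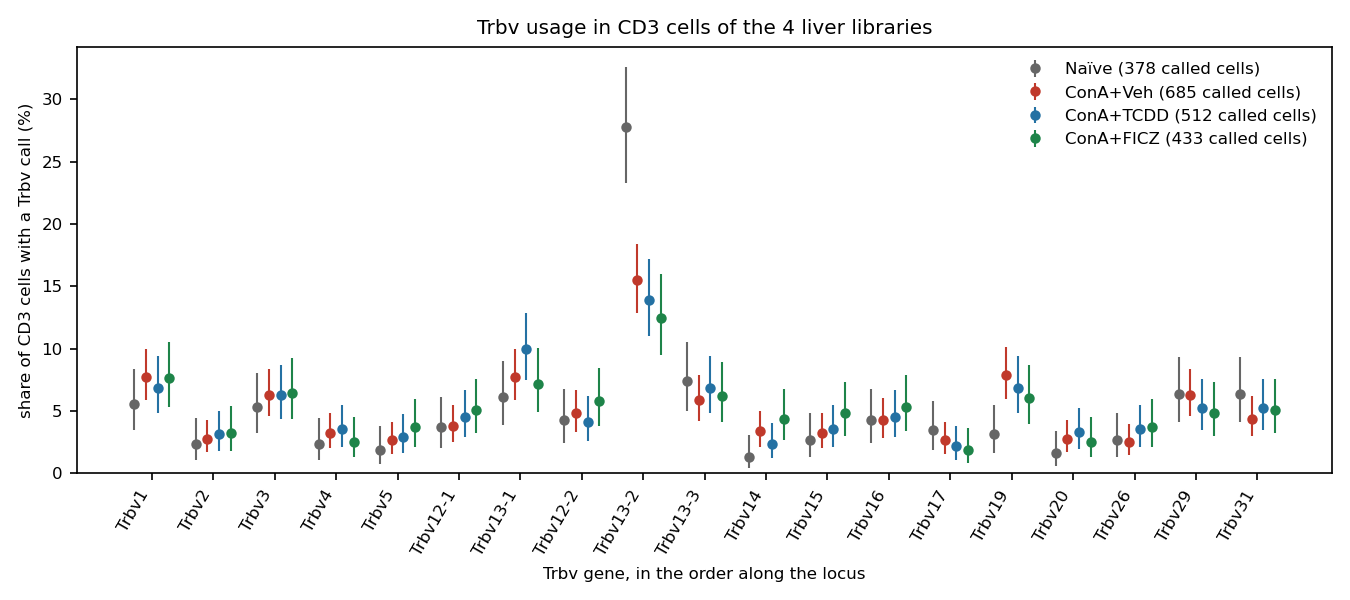
Share (%) of CD3 cells with a Trbv call that were called for each of the 19 Trbv genes with at least 20 called cells, in the order along the locus, for the 4 libraries. Points are shares and bars are exact 95% intervals for counting error. Trbv13-2 in Naïve, at 27.8%, stands above every other point, and every other gene stays at or below 9.96% in each library.

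No other Trbv gene reached the share of Trbv13-2 in its library. Each of the other 18 genes with at least 20 called cells held between 1.32% (Trbv14 in Naïve) and 9.96% (Trbv13-1 in ConA+TCDD) of the called cells. Trbv19 (formerly Vβ6) was called in 12 cells in Naïve (3.17%), 54 in ConA+Veh (7.88%), 35 in ConA+TCDD (6.84%) and 26 in ConA+FICZ (6.00%). For ConA+Veh against Naïve the log2 ratio of Trbv19 was 1.31 (0.39 to 2.35). Trbv13-2 and Trbv19 were the only 2 of the 19 genes whose interval in this comparison did not include 0. Trbv14 was called in 5, 23, 12 and 19 cells, or 1.32%, 3.36%, 2.34% and 4.39%, with a log2 ratio of ConA+Veh to Naïve of 1.34 (-0.08 to 3.10). After Trbv13-2 the lowest log2 ratios in this comparison were those of Trbv31 at -0.54 (-1.36 to 0.30) and Trbv17 at -0.39 (-1.50 to 0.76), and both intervals include 0.

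Between the ConA libraries the log2 ratios of Trbv shares furthest from 0 had wide intervals. For ConA+TCDD against ConA+Veh they were 0.50 (-0.54 to 1.55) for Trbv26 and -0.52 (-1.66 to 0.55) for Trbv14. For ConA+FICZ against ConA+Veh they were 0.59 (-0.34 to 1.53) for Trbv15, 0.57 (-0.51 to 1.65) for Trbv26 and -0.51 (-1.92 to 0.77) for Trbv17. For ConA+FICZ against ConA+TCDD they were 0.90 (-0.21 to 2.08) for Trbv14 and 0.49 (-0.40 to 1.40) for Trbv12-2. All of these intervals include 0. These comparisons share libraries and are not independent of each other.

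The evenness of usage was summarised by the effective number of Trbv genes, the number of equally used genes that would give the same Shannon entropy. It was 14.2 in Naïve (interval 12.9 to 15.7), 17.7 in ConA+Veh (16.9 to 18.5), 17.7 in ConA+TCDD (16.8 to 18.6) and 18.03 in ConA+FICZ (17.2 to 18.9). The Naïve interval lay below those of the ConA libraries, which overlapped each other. This number is not independent of the Trbv13-2 share, which was 27.8% in Naïve and 15.5%, 13.9% and 12.5% in the ConA libraries. The number without Trbv13-2 was not computed. In innate-like cells, gated as described next, the numbers were 4.97 (3.98 to 6.20), 8.89 (7.17 to 11.02), 9.85 (7.67 to 12.6) and 8.08 (6.05 to 10.8), again lowest in Naïve. In CD8 cells the numbers were 17.1, 18.1, 17.2 and 17.8, with overlapping intervals.

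The gates were set by UMIs of the coreceptors and of 2 innate genes. CD8 cells held a Cd8a or Cd8b1 UMI and no Cd4 UMI. Innate-like cells held no Cd8a or Cd8b1 UMI and at least 1 of Zbtb16, which encodes the transcription factor PLZF, or Klrb1c, which encodes NK1.1. CD4 cells held a Cd4 UMI, no Cd8a or Cd8b1 UMI and neither innate gene. CD8 cells numbered 179, 436, 290 and 273 in the libraries in order, CD4 cells 66, 119, 83 and 80, and innate-like cells 108, 132, 81 and 86. The other CD3 cells stayed ungated.

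The innate-like gate was checked against genes that did not set it, at median depths of 2549.5, 4198, 4174 and 4299.5 UMIs per cell. Il2rb was found in 89.8% of its cells in Naïve and in 84.9% to 89.4% in the ConA libraries. Cxcr6, a chemokine receptor of liver-resident lymphocytes, was found in 70.4% in Naïve and in 30.3%, 33.3% and 27.9% in the ConA libraries. Il4 was found in 30.6% of the cells in Naïve and in 14.4%, 16.05% and 11.6% in the ConA libraries. The NK genes Ncr1, Klre1 and Eomes moved the other way: Eomes was found in 0.926% of the cells in Naïve and in 18.9%, 9.88% and 8.14%. Ncr1 was found in 8.33% in Naïve and in 27.3%, 14.8% and 12.8%. The gate therefore held cells with NK markers in a share that differed between Naïve and the ConA libraries, and their part in the results of the gate was not tested, except that cells with no Trbv UMI did not enter the shares below.

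Trbv13-2 held a higher share of innate-like cells than of CD8 or CD4 cells in each library. In Naïve Trbv13-2 was called in 38 of 77 innate-like cells (49.4%, interval 37.8 to 61.0), against 21 of 133 CD8 cells (15.8%, 10.0 to 23.1) and 11 of 48 CD4 cells (22.9%, 12.0 to 37.3). Set against the CD8 share of the same library, the innate-like share gave a log2 ratio of 1.64 (0.84 to 2.49) in Naïve, 1.33 (0.46 to 2.15) in ConA+Veh, 1.89 (0.69 to 3.04) in ConA+TCDD and 2.79 (1.52 to 4.09) in ConA+FICZ. All 4 intervals lay above 0. Against the CD4 share the values were 1.11 (0.11 to 2.22), 0.73 (-0.28 to 1.75), 0.40 (-0.82 to 1.60) and 1.71 (0.27 to 3.27), so the intervals of ConA+Veh and ConA+TCDD included 0. Trbv13-2, Trbv29 and Trbv1 together were called in 57 of 77 innate-like cells in Naïve (74.0%, 62.8 to 83.4), 34 of 66 in ConA+Veh (51.5%, 38.9 to 64.0), 19 of 43 in ConA+TCDD (44.2%, 29.1 to 60.1) and 18 of 37 in ConA+FICZ (48.6%, 31.9 to 65.6). In CD8 cells the 3 genes together held 24.8%, 24.9%, 21.8% and 17.5%. Over the CD4 cells the 3 genes gave log2 ratios of 1.24 (0.40 to 2.17), 1.04 (0.26 to 1.84), 0.72 (-0.27 to 1.72) and 0.98 (-0.07 to 2.05), and the intervals of ConA+TCDD and ConA+FICZ included 0. Trbv1 and Trbv29 alone did not hold 1 order. Trbv1 was called in 5.41% of innate-like cells in ConA+FICZ, against 6.91% of CD8 and 10.8% of CD4 cells. Trbv29 was called in 6.98% of innate-like cells in ConA+TCDD, against 7.56% of CD8 cells.

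**Figure D3:**
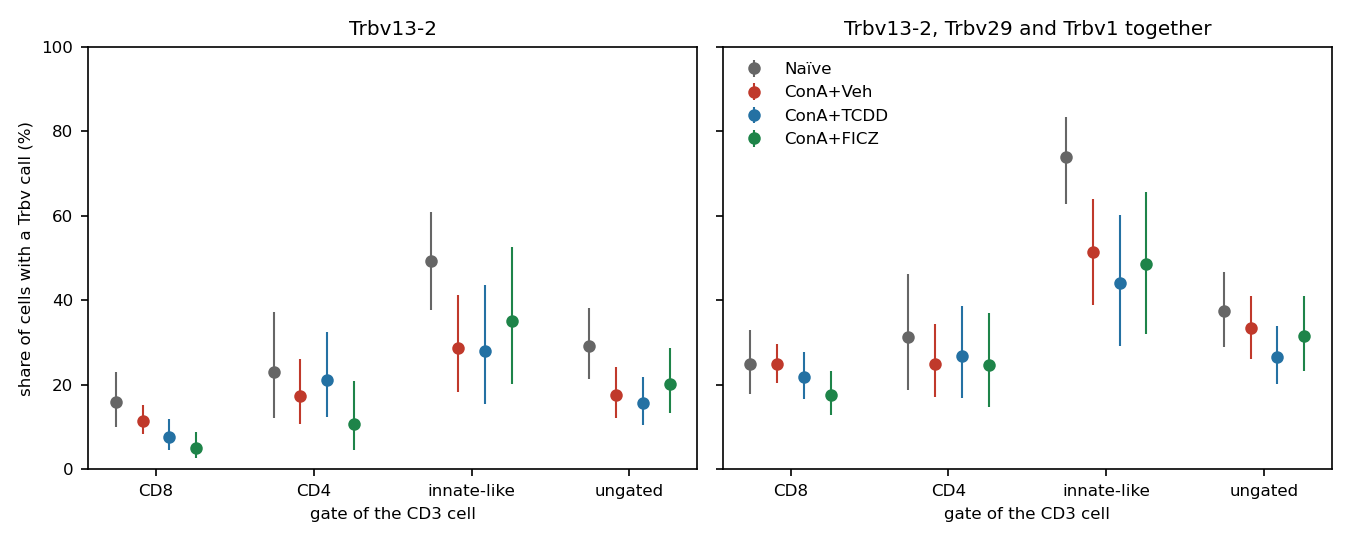
Share (%) of cells with a Trbv call that were called for Trbv13-2 (left) and for Trbv13-2, Trbv29 and Trbv1 together (right), by gate and library. Points are shares and bars are exact 95% intervals for counting error. The innate-like cells stand above the CD8 cells of the same library in all 4 libraries, with 74.0% for the 3 genes in Naïve.

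Within the innate-like gate, Zbtb16 separated the cells further in the point estimates. In Naïve the 3 genes together held 81.1% of 37 called cells with a Zbtb16 UMI and 67.5% of 40 without one. In ConA+TCDD they held 63.6% of 22 cells with Zbtb16 and 23.8% of 21 without, with a log2 ratio of 1.42 (-0.14 to 3.25). In all 4 libraries the cells with Zbtb16 had the higher share, and each interval of the ratio included 0.

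The lower Trbv13-2 share of the ConA libraries was also seen outside the innate-like gate. Among all other CD3 cells Trbv13-2 held 22.3% of 301 called cells in Naïve, 14.1% of 619 in ConA+Veh, 12.6% of 469 in ConA+TCDD and 10.4% of 396 in ConA+FICZ. For ConA+Veh against Naïve this was a log2 ratio of -0.66 (-1.14 to -0.18), beside -0.78 (-1.65 to 0.05) in the innate-like gate. Its value was -0.47 (-1.26 to 0.37) in CD8 cells, -0.40 (-1.57 to 0.82) in CD4 cells and -0.73 (-1.49 to 0.02) in ungated cells, so within each gate alone the interval included 0. Of the Naïve Trbv13-2 cells outside the innate-like gate, 35 were ungated, 21 CD8 and 11 CD4. The Naïve share of Trbv13-2 was 29.2% in ungated, 15.8% in CD8 and 22.9% in CD4 cells. Ungated Naïve cells had a median of 2206.5 UMIs, and 2 of them held Traj18. Whether NKT cells among the ungated cells had a part in the lower share was not tested. The innate-like gate held 19.0% of CD3 cells in Naïve and 11.9%, 10.2% and 12.6% in the ConA libraries. In CD8 cells Trbv13-2 was lowest in ConA+FICZ, at 11 of 217 cells (5.07%), with a log2 ratio to ConA+Veh of -1.17 (-2.28 to -0.18). In this comparison 14 Trbv genes had at least 20 called CD8 cells in the 2 libraries together. Trbv4 was the other of these 14 whose interval excluded 0. It was called in 3 of 217 cells against 17 of 350, a log2 ratio of -1.81 (-4.23 to -0.02).

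The UMIs of Trbv13-2 gave a larger difference than the cells did. In the CD3 cells of each library Trbv13-2 stood at a level of 308.5 CPM in Naïve, 72.4 in ConA+Veh, 55.9 in ConA+TCDD and 50.7 in ConA+FICZ. For ConA+Veh against Naïve its CPM gave a log2 ratio of -2.09 (-2.24 to -1.94). CPM are taken over the UMIs of all genes and the share of cells over Trbv calls, so these are unlike measures. All Trbv genes together were also lower in CPM, at 958.4 in Naïve and 617.9 in ConA+Veh. The ratio over all Trbv UMIs is given below with the other processing settings. The median of Trbv13-2 UMIs in a cell called for it was 4, 4.5, 3 and 3 in the same order, while the depth per CD3 cell was higher in the ConA libraries. Within the innate-like gate the median was 6 UMIs in Naïve and 4, 3.5 and 3 in the ConA libraries.

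The α chain of invariant NKT cells was counted in few cells. Trav11 had 4 UMIs in 4 cells in Naïve, 0 in ConA+Veh, 0 in ConA+TCDD and 1 in ConA+FICZ. All 4 Naïve cells were innate-like, 3 of them were called for Trbv13-2 and 1 for Trbv29. They made up 4 of 22 innate-like cells with a Trav call (18.2%, 5.19 to 40.3), and Trav11 was the leading α gene of that gate. With up to 3 counts allowed for a 0, the counted share could reach 7.89% of 38 such cells in ConA+Veh. It could reach 15% of 20 in ConA+TCDD and 25% of 12 in ConA+FICZ. These limits hold for counted cells only. The 39 Trav genes with no unique window, Trav11 among them, held 10 UMIs together. A count of 0 therefore does not limit the share of cells that use Trav11. The limits for ConA+Veh and ConA+TCDD lay below the Naïve share and the limit for ConA+FICZ above it, and all 3 lay within the Naïve interval. No interval was computed for the ratio of these shares, which rest on 4 Naïve cells with Trav11. A difference was therefore not tested. Trav11d had 0 UMIs in every library, and Trav11n had 1 in each of Naïve, ConA+Veh and ConA+TCDD. Since no 60-base window of Trav11 or Trav11d was unique, a read from either gene can fit both.

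Joining segments were hardly counted. Over all libraries the 60 Traj genes held 25 UMIs and the 14 Trbj genes held 0. Traj18, the partner of Trav11, held 8 of the 25, with 5 in Naïve, 0 in ConA+Veh, 2 in ConA+TCDD and 1 in ConA+FICZ. Of the 5 Naïve cells with Traj18, 3 were innate-like, 4 were called for Trbv13-2 and 1 for Trbv29. None of the cells with Traj18 was also counted for Trav11. Trav1, the mucosal-associated invariant T cell gene, was found in 5, 6, 3 and 4 CD3 cells, and its partner Traj33 had 0 UMIs.

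For 4 Trbv genes the shares in CD8 and CD4 cells kept 1 order in all 4 libraries with ranges that did not overlap. Trbv12-1 (formerly Vβ5.2, chr6:41113550-41114067) was called in 6.00% to 9.77% of CD8 cells and in 0% to 1.41% of CD4 cells, or 64 of 925 CD8 cells against 1 of 288 CD4 cells over the libraries. Trbv12-2 (formerly Vβ5.1, chr6:41118851-41119364) was called in 5.78% to 7.71% of CD8 cells and in 0% to 2.08% of CD4 cells, or 63 of 925 against 3 of 288. For Trbv12-1 and Trbv12-2 together the log2 ratio of the CD4 to the CD8 share was -2.92 (-8.29 to -0.29), -3.83 (-9.17 to -1.29), -3.09 (-8.45 to -0.49) and -3.22 (-8.56 to -0.63), and all 4 intervals lay below 0. Trbv29 (formerly Vβ7) held 5.53% to 7.56% of CD8 cells and 1.41% to 4.17% of CD4 cells, which were 2, 4, 1 and 2 cells. Its log2 ratios of CD4 to CD8 were -0.53 (-3.803 to 1.795), -0.71 (-2.71 to 0.85), -2.42 (-7.81 to 0.25) and -0.85 (-4.05 to 1.32), so each interval included 0. Trbv31 (formerly Vβ14, chr6:41557691-41558452) was the gene with the opposite pattern, at 3.14% to 4.44% of CD8 cells and 7.04% to 12.5% of CD4 cells. For these 4 genes the ranges of the shares over the libraries did not overlap.

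**Figure D4:**
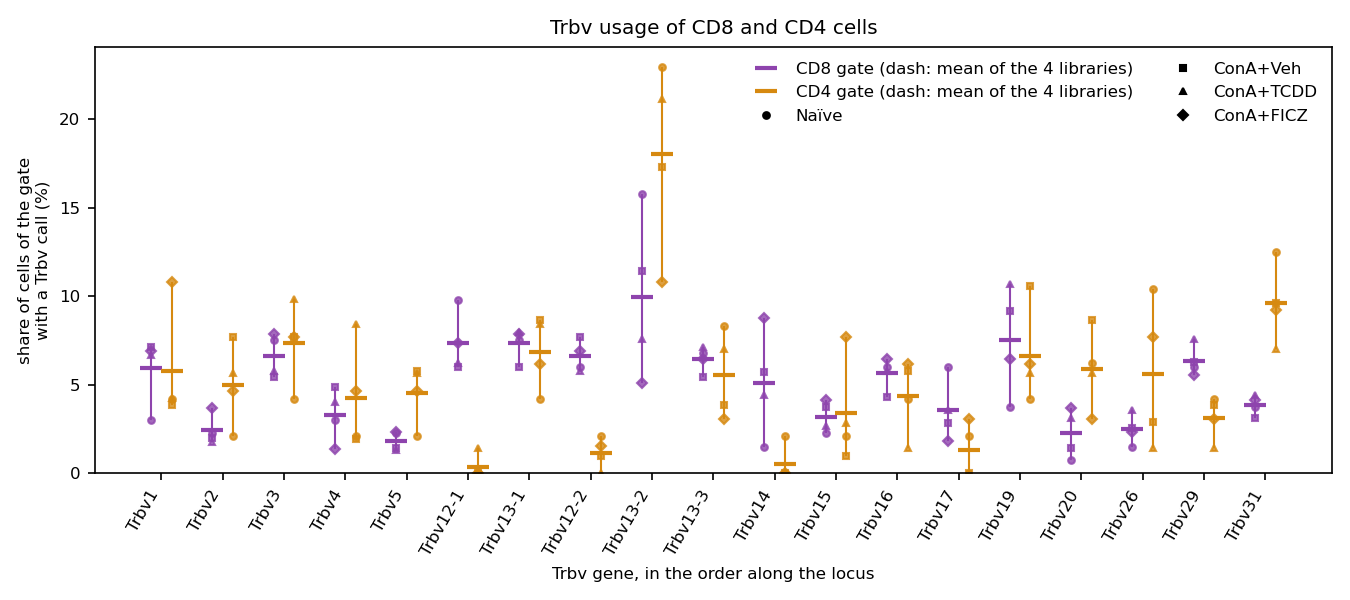
Share (%) of CD8 cells and CD4 cells with a Trbv call that were called for each of 19 Trbv genes, with 1 symbol per library, a line over their range and a dash at their mean. Trbv12-1, Trbv12-2 and Trbv29 stand higher in CD8 cells and Trbv31 in CD4 cells, each with ranges that do not overlap.

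Of the other 15 genes, Trbv13-2 was higher in CD4 cells in all 4 libraries, with overlapping ranges of 5.07% to 15.8% in CD8 and 10.8% to 22.9% in CD4 cells. The remaining 14 genes did not keep 1 order in all libraries. Trbv14 came close, with 51 of 925 CD8 cells against 1 of 288 CD4 cells, yet in Naïve it was called in 2 CD8 cells (1.504%) and 1 CD4 cell (2.08%). It was called in 0 innate-like cells of any library. In ConA+FICZ all 19 cells called for Trbv14 were CD8 cells, with a median of 11 Trbv14 UMIs each, against a median of 2.5 in the 12 cells of ConA+TCDD. For ConA+FICZ against ConA+TCDD the CPM of Trbv14 gave a log2 ratio of 2.53 (2.04 to 3.06) and its share of cells 0.90. Trbv13-1 (formerly Vβ8.3) held 9.09% of innate-like cells in Naïve and 18.2%, 16.3% and 13.5% in the ConA libraries. It held 6.00% to 8.00% of CD8 cells and 4.17% to 8.65% of CD4 cells. In innate-like cells of the ConA libraries Trbv29 held less, at 12.1%, 6.98% and 8.11%, as did Trbv1, at 10.6%, 9.30% and 5.41%. In Naïve these genes held more than Trbv13-1, at 11.7% and 13.0%.

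A UMI of Mki67 or Top2a, genes of dividing cells, was found in 5.59% of CD8 cells in Naïve and in 75%, 58.3% and 60.1% in the ConA libraries, at median depths of 3297, 9259.5, 8445 and 11840 UMIs per cell. In B cells without CD3 UMIs either gene was found in 1.82%, 26.03%, 21.3% and 12.6%, at the depths given for them before. After thinning each cell to 1000 UMIs the shares were 2.84%, 44.6%, 35.5% and 26.7% in CD8 cells and 1.13%, 11.7%, 9.39% and 5.58% in B cells. Thinning left out 3, 12, 8 and 3 CD8 cells and 33, 66, 42 and 39 B cells. For Trbv13-2 and Trbv19 the intervals of the share in these cells and in the other CD8 cells overlapped in every library. In ConA+Veh Trbv13-2 was called in 32 of 277 CD8 cells with either gene (11.6%) and 8 of 73 others (10.96%), and Trbv19 in 23 of the former (8.30%) and 9 of the latter (12.3%). In ConA+TCDD Trbv19 was called in 15 of 141 cells with either gene (10.6%) and 9 of 84 others (10.7%). In ConA+FICZ it was called in 8 of 138 (5.80%) and 6 of 79 (7.59%). The leading β gene of all CD8 cells was Trbv13-2 with 11.4% in ConA+Veh, Trbv19 with 10.7% in ConA+TCDD and Trbv14 with 8.76% in ConA+FICZ.

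Cells with both an α and a β call gave no large pair. Such cells numbered 158 in Naïve, 388 in ConA+Veh, 273 in ConA+TCDD and 244 in ConA+FICZ, with 139, 299, 221 and 212 distinct pairs of a Trav and a Trbv gene. The most frequent pair was found in 3 cells in Naïve and in 4 cells in each ConA library, between 1.03% and 1.90% of the paired cells. In Naïve 3 pairs reached 3 cells, all with Trbv13-2: Trav11, all 3 innate-like, Trav8d-2, all 3 CD8, and Trav13-4-dv7, of mixed gates. In ConA+TCDD 2 pairs reached 4 cells, Trav6-7-dv9 with Trbv3 and Trav9-1 with Trbv13-3, and in ConA+FICZ Trav6-7-dv9 and Trav7-5 did so, both with Trbv13-2, each pair in CD8 cells and in cells outside that gate. In ConA+TCDD the pairs of Trav12-1 and of Trav12-3 with Trbv19 were each found in 3 cells, all of them CD8. In ConA+Veh the 3 pairs of 4 cells were Trav12-2 with Trbv31, Trav13-1 with Trbv12-2 and Trav14d-3-dv8 with Trbv13-2, and the first was found in CD8, CD4 and ungated cells. A pair of genes is no clone, since the junction was not read.

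The α locus was used unevenly along its length. The 32 genes at its 5′ end, from Trav1 to Trav5d-3, led in 139 cells over the libraries, the next 32 in 122, the third group in 439 and the 32 nearest the J segments, from Trav14-1 to Trav23, in 568. The 39 genes with a d directly after the family number and the 34 with an n there are the copied blocks of the locus. They led in 128 and 202 cells, and the other 55 genes led in 938. Of the d genes 23 led in no cell, of the n genes 18 and of the others 9. Few windows of the copied genes were unique, so low counts and shared sequence cannot be told apart here. The share of the last group was 41.8% in Naïve (34.6 to 49.3), 45.3% in ConA+Veh, 41.0% in ConA+TCDD and 50.7% in ConA+FICZ (44.7 to 56.7), with overlapping intervals.

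**Figure D5:**
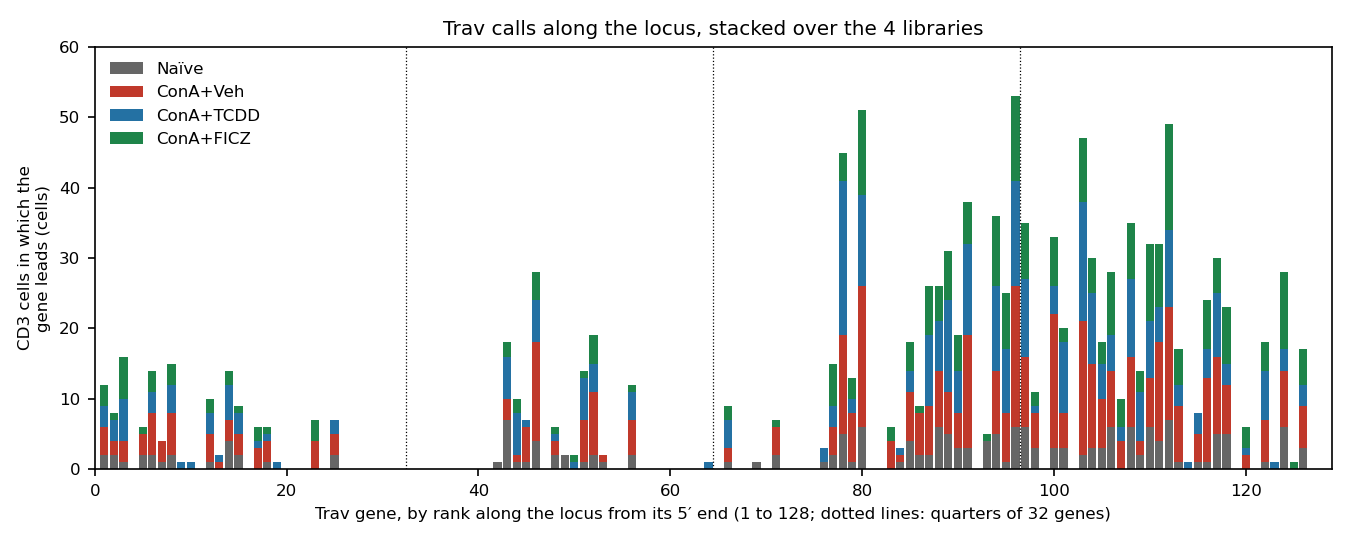
Number of CD3 cells in which each of the 128 Trav genes leads, by rank along the locus from its 5′ end, stacked over the 4 libraries. Dotted lines part the locus in groups of 32 genes. The bars are highest in the 2 groups nearest the J segments, with 439 and 568 cells against 139 and 122 in the groups before them.

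The α genes called in most cells were Trav13-1 with 53 cells over the libraries, Trav14n-3 with 51, Trav6-7-dv9 with 49, Trav12-2 with 47 and Trav16n with 45. The other 10 of the 15 most called genes led in 30 to 38 cells each. No Trav gene held more than 6.21% of the called cells of a library, the highest being Trav16n in ConA+TCDD. The effective number of Trav genes was 52.4 in Naïve, 51.7 in ConA+Veh, 48.1 in ConA+TCDD and 47.3 in ConA+FICZ, with overlapping intervals from 43.9 to 57.1. These numbers came from 184, 446, 354 and 284 called cells. By the inverse Simpson index, another effective number, they were 59.5, 47.8, 43.4 and 46.2, highest in Naïve and without intervals.

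Single α genes varied between libraries with wide intervals. Trav16n (chr14:53351028-53351621) was called in 5, 14, 22 and 4 cells. Its share gave a log2 ratio of -2.14 (-4.14 to -0.58) for ConA+FICZ against ConA+TCDD, or -0.98 (-2.04 to -0.01) for the Trav16 family joined, and 0.99 (-0.05 to 2.06) for ConA+TCDD against ConA+Veh. Trav9-2 (chr14:53590857-53591514) was called in 3, 19, 4 and 7 cells, with log2 ratios of 1.39 (-0.38 to 3.79) for ConA+Veh against Naïve, -1.91 (-3.93 to -0.33) for ConA+TCDD against ConA+Veh and -0.79 (-2.28 to 0.52) for ConA+FICZ against ConA+Veh. With the Trav9 family joined these were -0.13, 0.023 and -0.13, so the first 2 directions did not hold once the other genes of the family were counted. Among these, Trav9-1 was called in 5, 6, 13 and 7 cells, and Trav9d-2 and Trav9n-2 in 0. Trav12-2 (chr14:53616315-53616914) was called in 2, 19, 17 and 9 cells, with log2 ratios of 1.97 (-0.08 to 5.12) for ConA+Veh against Naïve and -0.60 (-1.95 to 0.65) for ConA+FICZ against ConA+TCDD. For the Trav12 family the former was 1.24 (0.06 to 2.64), from 3.804% of called cells in Naïve to 8.97% in ConA+Veh. The Trav8 family went from 18 cells (9.78%) to 22 (4.93%), a log2 ratio of -0.99 (-1.95 to -0.00366). Of the 12 families with at least 20 called cells in both libraries together, Trav12 and Trav8 were the only ones whose interval in this comparison did not include 0. The other α genes named by the rule, with intervals that all include 0, were Trav7-5 at 0.75 and Trav14d-3-dv8 at -0.89 for ConA+TCDD against ConA+Veh, Trav10 at -0.76 and Trav6-7-dv9 at 0.56 for ConA+FICZ against ConA+Veh, and Trav6-7-dv9 at 0.77 and Trav9-1 at -0.58 for ConA+FICZ against ConA+TCDD.

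The CPM of the V genes were set beside those of all genes. Of the 66 V genes with at least 20 UMIs in Naïve and ConA+Veh together, 8 were at least 2-fold higher in CPM in ConA+Veh and 11 at least 2-fold lower. Among all 10736 genes so tested 10.5% were higher and 14.6% lower, close to the shares of the V genes. For ConA+TCDD against ConA+Veh 8 of 72 V genes were higher and 15 lower, against 0.975% and 6.25% of all genes. For ConA+FICZ against ConA+Veh 7 of 74 were higher and 15 lower, against 1.49% and 5.26%. For ConA+FICZ against ConA+TCDD 9 of 64 were higher and 7 lower, against 3.14% and 1.98%. V genes passed 2-fold more often than all genes between the ConA libraries, in both directions. Most of those that passed were Trav genes: 19 of 23, 20 of 22 and 15 of 16 in these 3 comparisons. Trav genes were also most of the V genes tested, at 51 of 72, 53 of 74 and 44 of 64. The V genes and all genes were not matched for UMIs or for the number of cells that held them. The 128 Trav genes had a median of 13.5 UMIs in the CD3 cells of all libraries. Values with at least 50 UMIs asked are given below. For ConA+Veh against Naïve the median log2 ratio was -0.47 over the Trbv genes and 0.18 over the Trav genes, against -0.12 over all genes. For ConA+TCDD against ConA+Veh these medians were -0.33 and 0.05, against -0.07. For ConA+FICZ against ConA+Veh they were -0.16 and 0.17, against -0.02, and for ConA+FICZ against ConA+TCDD 0.10 and 0.00050, against 0.04. Among the Trbv genes Trbv14 and Trbv12-2 were 2-fold lower in ConA+TCDD than in ConA+Veh, with the seldom called Trbv23 and Trbv24.

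The constant genes of the β chain were at a lower level in ConA+Veh than in Naïve. Trbc1 and Trbc2 together stood at 828.0 CPM in Naïve and 261.3, 273.2 and 291.1 in the ConA libraries. Between ConA+Veh and Naïve this was a log2 ratio of -1.66 (-1.75 to -1.58). Trac stood at 333.1 CPM in Naïve and at 212.2, 248.9 and 253.5. Of 25 receptor and signal genes with enough UMIs, 4 were at least 2-fold lower in ConA+Veh and 0 higher: Trbc1, Trbc2, Trat1, which encodes a receptor-associated adaptor, and Plcg1, which encodes a signalling phospholipase. This was 16% of the list, near the 14.6% of all genes. For each of the other 3 comparisons 0 of the 25 genes passed 2-fold. Few of all genes did so: 0.975% were higher and 6.25% lower for ConA+TCDD against ConA+Veh. For ConA+FICZ these shares were 1.49% and 5.26% against ConA+Veh and 3.14% and 1.98% against ConA+TCDD. The list also holds Cd3d, Cd3e and Cd3g, whose UMIs set the CD3 cells. Rag1 had 0 UMIs in all libraries other than ConA+Veh, with 3, and Rag2 had 1 UMI in all. CPM are relative to the UMIs of all CD3 cells of a library together. Less receptor RNA, more RNA of other genes and another mix of cells therefore cannot be told apart. By gate, all Trbv genes together stood at 737.1 CPM in Naïve and 631.6 in ConA+Veh in CD8 cells. In CD4 cells they stood at 1043.9 and 777.2, and in innate-like cells at 1560.1 and 607.9. The part of the mix of cells was not tested.

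A second β gene was found in 111 of 394 cells with a Trbv UMI in Naïve (28.2%), 198 of 702 in ConA+Veh (28.2%), 116 of 527 in ConA+TCDD (22.0%) and 117 of 447 in ConA+FICZ (26.2%). With 2 or more UMIs asked of the second gene it was 9.90%, 8.97%, 8.73% and 12.1%. The combination seen most was Trbv12-2 with Trbv13-2, in 43, 39, 18 and 17 cells. Neighbours were taken among the 19 Trbv genes with at least 20 called cells. Trbv12-2 and Trbv13-2 are such neighbours, with 2031 bases between them and Trbv12-2 on the 5′ side. Trbv12-2 UMIs were found in 80 of 336 cells called for Trbv13-2 (23.8%) and in 55 of 1577 cells called for neither (3.49%). The same held for Trbv13-2 in cells called for Trbv13-3, the next of these genes on its 3′ side, with 36 of 130 cells (27.7%) against 102 of 1542 (6.61%). In the reverse direction, Trbv13-2 UMIs were found in 3 of 95 cells called for Trbv12-2 (3.16%). This was below the 135 of 1577 cells called for neither (8.56%). Trbv13-3 UMIs were found in 5 of 336 cells called for Trbv13-2 (1.49%), against 10 of 1542 called for neither (0.649%). These 2 pairs were singled out after their values were seen. Of the other 16 pairs adjacent among these 19 genes the highest share for the 5′ gene was that of Trbv16, in 2 of 50 cells called for Trbv17. Genes that are not adjacent were also found together, and no such background was computed for them. In ConA+FICZ Trbv13-2 was found with Trbv14 in 13 cells and with Trbv13-3 in 11. It was found with Trbv19 in 7 cells in Naïve and 12 in ConA+Veh, and with Trbv13-3 in 8 and 12. The excess of the 5′ neighbour was present in each library for Trbv13-2, at 31.4% in Naïve, 25.5% in ConA+Veh, 16.9% in ConA+TCDD and 14.8% in ConA+FICZ. In all of these cells Trbv13-2 held more UMIs than Trbv12-2, as the call requires.

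The 10 Trav genes with dv in their symbol can also be joined in the δ chain. In cells with a Trdc UMI, such genes led in 3 of 4, 15 of 19, 9 of 16 and 8 of 10 cells with a Trav call in the Naïve, vehicle, TCDD and FICZ libraries. In cells without Trdc they led in 28 of 180 (15.6%), 52 of 427 (12.2%), 39 of 338 (11.5%) and 40 of 274 (14.6%). A Trbv UMI was found in 53 of 161 cells with Trdc (32.9%) and in 2017 of 2994 without (67.4%). In each of the 4 libraries the cells with Trdc had the higher share of dv genes and the lower share with a Trbv UMI.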

How the data were processed

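Single-cell suspensions of liver mononuclear cells were measured with the 10x Genomics 5′ assay. The deposited values are raw UMI counts per gene and cell, which the authors made by aligning reads to mm10 with Cell Ranger 3.0.2. How it handled reads that fit several V genes is not given in the sources used here. Totals were 5952445 UMIs in Naïve, 19252211 in ConA+Veh, 12077209 in ConA+TCDD and 16017797 in ConA+FICZ. No doublet caller was run and no cell was left out. Libraries shared 4 to 15 cell barcodes per pair of libraries, with the 15 between Naïve and ConA+Veh. Of these 15, 2 were CD3 cells in each of these libraries, and these 2 had the same Trbv call. In every other pair of libraries 0 shared barcodes had the same Trbv call.

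The members, gates and gene lists were chosen with earlier results of these data known. Shares have exact Clopper-Pearson intervals, ratios of shares and CPM have exact conditional binomial intervals, and shares of 0 allow up to 3 counts. The interval of the effective number comes from the variance of the entropy. UMIs from 1 cell or clone are not independent, so intervals of CPM are too narrow. Named genes were every Trbv gene with 20 called cells, the 15 most called Trav genes, Trav11, Trav1, and per comparison the 3 largest rises and falls among genes with 20 called cells in both libraries together, and from the 5 most frequent pairs per library. Sequences, positions and biotypes came from GENCODE M21, and former names from RefSeq. Scripts ran in Python 3.11.15 with scipy 1.17.1, pandas 2.3.3, numpy 2.4.6 and edlib 1.3.9.post1. Only the CPM ratios and the Trbv calls were tested on simulated data. The simulated cells held a second Trbv gene less often than the cells counted here.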

Additional observations from a re-analysis of the deposited data

Results flagged for a closer look

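V gene UMIs were also counted in cells outside the comparisons. Among B cells without CD3 UMIs, the share with a Trbv UMI was 5.33% in ConA+Veh, 2.29% in ConA+TCDD and 1.85% in ConA+FICZ, each above the Naïve share of 0.456%. The share with a Trav UMI was 2.42%, 1.38% and 0.741% in the same libraries, against 0.182% in Naïve. With each cell thinned to 1000 UMIs the Trbv shares were 1.97% (15 of 760 cells, interval 1.11 to 3.23), 0.508% (2 of 394) and 0.389% (3 of 771). The Naïve share was 0.282% (3 of 1064, interval 0.058 to 0.822). After thinning the intervals of ConA+TCDD and ConA+FICZ overlapped that of Naïve, and that of ConA+Veh lay above it. Free RNA and doublets of a B and a T cell were not tested as sources.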

How the results depend on the processing

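The share of CD3 cells with a Trbv call in the Naïve, vehicle, TCDD and FICZ libraries was 51.5%, 51.3%, 49.7% and 51.5% with 2 UMIs asked of the leading gene, 72.2%, 78.5%, 72.4% and 72.4% with 2 CD3 UMIs asked of a cell, and 47.5%, 35.3%, 30.4% and 31.1% after thinning to 1000 UMIs. Without cells that held Cd79a, Cd79b or Lyz2 it was 69.4% in ConA+Veh. The effective number of Trbv genes over all Trbv UMIs was 12.8, 16.7, 15.8 and 16.1. It was 16.7 in ConA+TCDD with 2 UMIs of the leading gene, and 15.8 in ConA+TCDD and 16.1 in ConA+FICZ after thinning. Naïve had the lowest value of the 4 libraries over all Trbv UMIs. The Trav11 share of innate-like cells in Naïve was 0% both with 2 UMIs of the leading gene and after thinning. A second Trbv gene was found in 9.90%, 8.97%, 8.73% and 12.1% of cells with 2 UMIs asked of it, and in 13.5%, 6.04%, 4.66% and 4.31% after thinning.

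For Trbv13-2, ConA+Veh against Naïve, the log2 ratio was -1.46 over all Trbv UMIs and -0.40 in the CD4 gate. Over all Trbv UMIs Trbv14, ConA+FICZ against ConA+TCDD, was at 2.41, and in the CD4 gate Trbv15, ConA+FICZ against ConA+Veh, was at 3 from few cells. Joining families turned Trav9-2, ConA+TCDD against ConA+Veh, to 0.023. Asking for at least 50 UMIs left 2 of 43 V genes 2-fold higher and 6 lower in ConA+Veh against Naïve, beside 9.42% and 12.4% of all genes under the same setting. It left 4 and 8 of 54 in ConA+TCDD against ConA+Veh (all genes 0.404% and 3.99%), 4 and 5 of 52 in ConA+FICZ against ConA+Veh (0.701% and 3.11%), and 5 and 3 of 47 in ConA+FICZ against ConA+TCDD (1.67% and 0.858%). In ConA+Veh against Naïve 17 of 82 were lower with at least 10 UMIs (16.1% of all genes) and 7 of 66 with the mean over cells (12.1%). The Trbv13-2 share of innate-like cells under the same alternatives was added after seeing the data. Of the values of this share 27 stayed within their interval and 1 did not. Among the log2 ratios of single genes 40 of the Trbv values and 24 of the Trav values stayed within their interval, beside 7 and 1 that moved and 1 Trav value that reversed. Other causes were not tested.

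No paired analysis was possible because each condition has 1 library, and for the same reason no replicate was left out. The 1268 Trav calls were spread over 78 genes, and shared sequence also limits single α genes.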
